A study of Homo sapiens with 12 samples.

Results

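Kinesins are motor proteins that use the energy of ATP to act on microtubules. Most walk along them and carry vesicles, organelles, chromosomes or other microtubules, and some take microtubules apart at their ends. Members with roles in mitosis push the spindle poles apart, move and align chromosomes and build the spindle midzone and cleavage furrow, and their mRNAs are best known from proliferating cells, including gliomas. Other members carry cargo in cells that divide and in cells that do not, and a few work at the cilium or centriole.

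The family was taken as every protein-coding row whose symbol is KIF with a number or KIFC with a number, which gave 42 genes among 19817 protein-coding rows and 58302 rows in all. By role they were grouped as 9 mitotic kinesins, 6 other kinesins with a role in division, 17 transport kinesins, 5 kinesins of the cilium and centriole, and 5 remaining members. CENPE and STARD9, kinesins whose symbols do not follow the pattern, were followed beside them. Both are large motors of dividing cells, CENPE at the kinetochore and STARD9 at the centrosome.

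The libraries came from polyadenylated RNA of U251 and U87, established human glioma cell lines. The 4 groups were U251 with 180 µM artesunate, U251 controls, U87 with 24.08 µM artesunate, and U87 controls, with 3 libraries in each. Artesunate, a derivative of artemisinin used against malaria, was given for 24 h, all samples carry the label day 9, and the controls received medium. The extraction text names artemisinin where the treatment label names artesunate, and a solvent control is not stated. Each line had its own dose, and the 2 cannot be told apart. The replicates are not said to be separate cultures, so p-values measure the spread between these libraries, which may be technical. In bulk RNA, fewer cells of a type and less RNA per cell cannot be told apart.

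Library totals were 13631985 to 17314284 counts, and 17150 genes had enough counts to test. Of 12 astrocyte and glioma markers, 9 were tested, and their summed level was 5190 to 7247 CPM (counts scaled to the library total) over the 4 groups, most of it VIM and CD44. AQP4 had no count in any library, ALDH1L1 and SOX2 had none in U87, OLIG2 had none in U251 with artesunate and S100B had none in U87 with artesunate. The neuron list summed to 202 to 225 CPM in U251 with artesunate and 126 to 299 CPM in U251 controls, and to 49.5 to 64.7 CPM in U87 with artesunate and 81.2 to 93.4 CPM in U87 controls, with STMN2 at 0 throughout. The microglia and leukocyte list reached 119 CPM at most, in U87 controls, with AIF1 at 0 throughout. The part of these markers in the kinesin results was not tested.

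Of the 42 kinesins, 36 were tested. KIF12, KIF19, KIF25, KIF26A and KIF2B had no count in any library, where 3 counts correspond to 0.173 to 0.220 CPM, and KIF1A, an axonal carrier of synaptic vesicle precursors, had 6 counts in all 12 libraries together. All 9 mitotic kinesins were tested, with 5 of 6 other division kinesins, 16 of 17 transport kinesins, 4 of 5 of the cilium and centriole and 2 of the remaining 5.

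Promoters of many genes transcribed in late cell cycle phases hold a short element with the letters TTTGAA, the cell cycle genes homology region, and a CCAAT box upstream of it. Both were searched on both strands, so that TTCAAA and ATTGG count as matches, in RefSeq windows of 300 bases (250 before and 50 after a gene's start, build GRCh38.p14). The table held 43 windows of 34 kinesins. The letters TTTGAA stood in 7 of 9 mitotic windows (77.8%), 3 of 7 windows of other division kinesins (42.9%) and 1 of 17 transport windows (5.88%), against 15.2% of all 35116 windows. Some genes have more than 1 window, and the 17 transport windows belong to 12 genes. Counted by gene, TTTGAA stood in 7 of 9 mitotic, 3 of 6 other division and 1 of 12 transport kinesins, against 4961 of 27305 genes. CCAAT stood in 7 of 9 mitotic windows (77.8%) and 5 of 17 transport windows (29.4%), against 34.6% of all windows, and both stood together in 66.7% of mitotic windows and 5.90% of all. A match describes these letters only. No 2 matches overlapped in the stretches printed here.

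The stretch from 100 bases before to 10 bases after the start is shown for the mitotic kinesins that hold either motif there and, for comparison, for KIF5B, the most abundant transport kinesin; capitals mark TTTGAA or CCAAT in either orientation. All are written 5′ to 3′ on the gene's own strand. KIF11 lies at chr10:92593030-92593139 (plus strand), KIF4A at chrX:70290004-70290113 (plus strand) and KIF23 at chr15:69414249-69414358 (plus strand). KIF15 lies at chr3:44761694-44761803 (plus strand), KIF18A at chr11:28108147-28108256 (minus strand) and KIF14 at chr1:200620742-200620851 (minus strand). KIFC1 lies at chr6:33391723-33391832 (plus strand), KIF20A at chr5:138179012-138179121 (plus strand) and KIF5B at chr10:32056416-32056525 (minus strand).
KIF11: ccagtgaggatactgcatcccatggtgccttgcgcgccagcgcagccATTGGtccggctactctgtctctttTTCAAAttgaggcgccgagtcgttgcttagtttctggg
KIF4A: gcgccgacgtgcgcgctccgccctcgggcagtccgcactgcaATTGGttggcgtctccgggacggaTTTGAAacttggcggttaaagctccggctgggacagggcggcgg
KIF23: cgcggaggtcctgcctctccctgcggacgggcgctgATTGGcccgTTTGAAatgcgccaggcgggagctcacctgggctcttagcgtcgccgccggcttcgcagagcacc
KIF15: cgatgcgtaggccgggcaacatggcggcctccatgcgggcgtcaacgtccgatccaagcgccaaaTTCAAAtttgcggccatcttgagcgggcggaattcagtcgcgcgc
KIF18A: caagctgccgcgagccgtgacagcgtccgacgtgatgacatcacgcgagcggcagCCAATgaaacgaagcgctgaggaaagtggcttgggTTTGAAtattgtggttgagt
KIF14: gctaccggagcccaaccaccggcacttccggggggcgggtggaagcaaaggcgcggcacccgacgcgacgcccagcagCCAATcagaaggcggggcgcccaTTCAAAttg
KIFC1: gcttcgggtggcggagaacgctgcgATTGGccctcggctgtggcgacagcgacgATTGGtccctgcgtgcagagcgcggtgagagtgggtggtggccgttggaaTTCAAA
KIF20A: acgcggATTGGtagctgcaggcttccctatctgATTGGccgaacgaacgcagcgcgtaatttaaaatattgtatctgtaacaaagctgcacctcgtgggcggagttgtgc
KIF5B: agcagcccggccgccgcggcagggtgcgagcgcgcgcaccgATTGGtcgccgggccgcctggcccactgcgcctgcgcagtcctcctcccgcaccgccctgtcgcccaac
KIF11, KIF4A, KIF23, KIF18A, KIF14 and KIFC1 hold both motifs, KIF15 holds TTTGAA alone and KIF20A holds CCAAT alone. The window of KIF2C, the mitotic member not shown, held neither. KIF5B held a CCAAT match in the stretch shown and a TTTGAA match farther upstream.

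Levels were compared between genes in FPKM, which is scaled to transcript length, and between libraries in CPM. The mitotic kinesins together reached 143 ± 3.51 FPKM in U251 with artesunate and 228 ± 1.53 FPKM in U251 controls (SD, n = 3 each), and 84.3 ± 6.13 FPKM in U87 with artesunate and 140 ± 5.86 FPKM in U87 controls. The transport kinesins reached 192 ± 2.00 FPKM in U251 with artesunate and 188 ± 4.04 FPKM in U251 controls, and 234 ± 5.03 FPKM in U87 with artesunate and 192 ± 4.16 FPKM in U87 controls. Mitotic members made up 37.3% of the summed kinesin FPKM in U251 with artesunate and 47.6% in its controls, and 23.7% in U87 with artesunate and 35.4% in its controls. No test was made on these sums, and KIF5B was the largest single part of the transport sum.

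**Figure D1:**
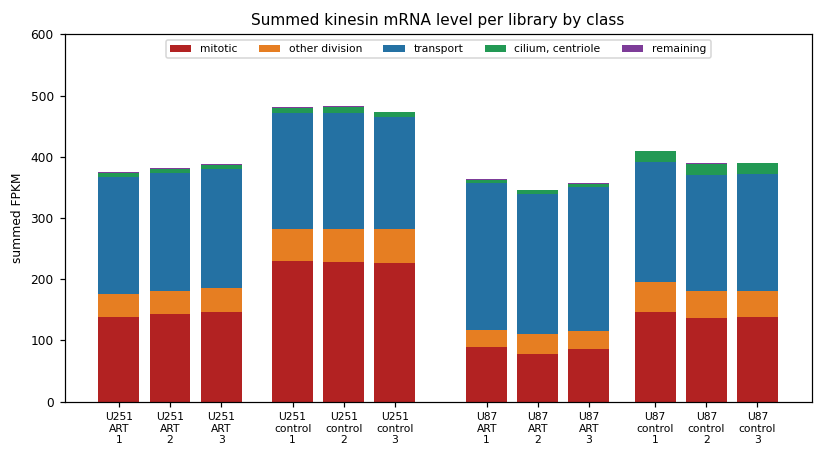
Summed FPKM (vertical axis) of all 42 kinesins in each of the 12 libraries, stacked by role, with artesunate libraries left of their controls. The mitotic segment averages 143 FPKM with artesunate and 228 FPKM in controls of U251, and 84.3 FPKM and 140 FPKM in U87.

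KIF5B had the highest FPKM of the family in every group, at 75.4 ± 5.94 FPKM in U251 with artesunate and 85.3 ± 2.49 FPKM in U251 controls, and at 126 ± 7.37 FPKM in U87 with artesunate and 68.1 ± 7.83 FPKM in U87 controls. In U251 with artesunate the next were KIF1C (43.0 ± 3.71), KIF4A (35.2 ± 0.324) and KIF11 (26.9 ± 2.58 FPKM). In U251 controls they were KIF4A (51.9 ± 1.99), KIF11 (43.9 ± 1.15) and KIF2C (36.6 ± 2.94 FPKM), followed by KIF1C at 34.4 ± 2.06 FPKM, within the spread of KIF2C. In U87 with artesunate KIF3B (37.0 ± 0.782) and KIF11 (20.1 ± 2.12 FPKM) came next, and in U87 controls KIF1C (34.9 ± 2.34), KIF3B (30.2 ± 0.616) and KIF11 (28.8 ± 3.61 FPKM), of which the last 2 lay within their spread. At least 1 FPKM was reached by a mean of 28.0 members in each U251 group, 29.7 in U87 with artesunate and 30.0 in U87 controls.

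The first comparison asked how artesunate changed the family in U251. Of the mitotic kinesins 8 of 9 fell and KIFC1 did not pass, with a median log2 fold change of -0.71, and the median over all tested genes was 0.00. Over all members 10 fell, none rose and 26 did not pass (edgeR's quasi-likelihood test, Benjamini-Hochberg adjusted p under 0.05 over all 17150 genes), where 8.34% of all tested genes passed, 4.26% lower and 4.09% higher. The other 2 that fell were KIF20B and KIF24, and none of the 16 transport kinesins passed (median 0.10). For the count of 0 higher members, 2 had an unadjusted p under 0.05, KIF13B and KIF1C, and DESeq2 called the same 2. A fit on the U251 libraries alone called KIF1C, KIFC2 and KIFC3 higher. Among all tested genes, DESeq2 called 1083 of 17150 higher and the fit on the U251 libraries alone 1481 of 15286.

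In U87 the family moved both ways: 17 of the 36 tested members fell, 10 rose and 9 did not pass, where 58.3% of all tested genes passed, 29.2% in each direction. Of the mitotic kinesins 7 of 9 fell, with a median of -0.44 where the median over all tested genes was 0.00, and KIF14 and KIF18A did not pass. Of the 16 transport kinesins 8 rose and 5 fell, with a median of 0.31. The U87 fold changes of all genes ran with the GC content of the transcript: the median log2 fold change was 0.77 in the decile of genes lowest in GC and -1.43 in the highest, against -0.22 and 0.30 in U251. A second fit, corrected for GC content and length within each library, is therefore given beside the U87 calls, and whether the GC trend is technical was not tested. In it 9 of 9 mitotic kinesins fell in U87 (median -0.91; 45.7% of all genes passed, 21.7% lower and 23.9% higher) and 9 of 9 in U251 (median -0.62; 8.73% passed, 4.22% lower and 4.51% higher). Of the transport kinesins 5 rose, 1 fell and 10 did not pass in U87, with a median of 0.07.

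**Figure D2:**
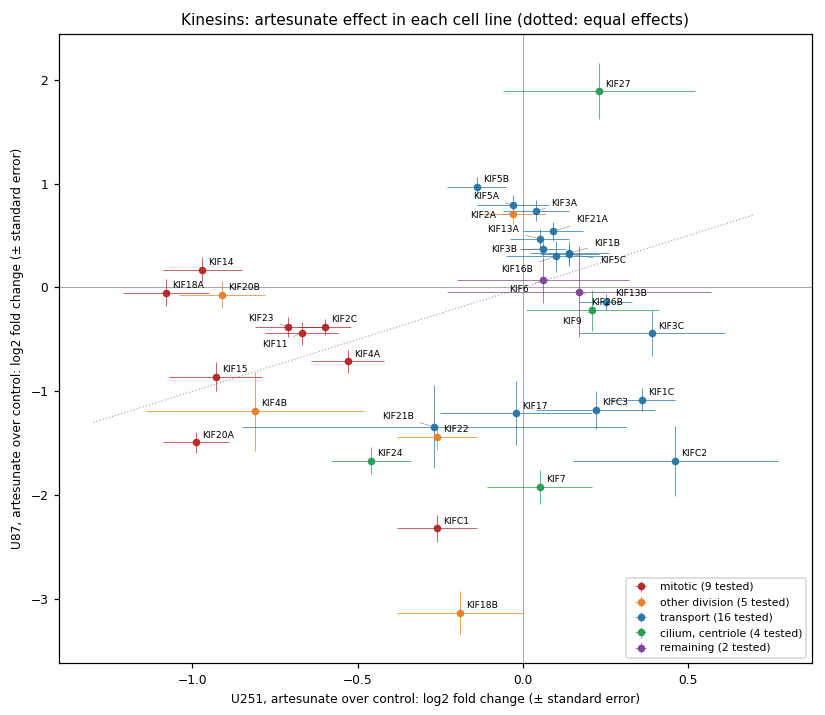
Log2 fold change of artesunate over control in U251 (horizontal axis) and U87 (vertical axis) for the 36 tested kinesins, coloured by role; bars are standard errors and the dotted line marks equal effects. The mitotic kinesins all lie left of 0 in U251, from -1.08 (KIF18A) to -0.26 (KIFC1), and the transport kinesins run from -0.27 (KIF21B) to 0.46 (KIFC2) in U251 and from -1.67 (KIFC2) to 0.97 (KIF5B) in U87.

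**Figure D3:**
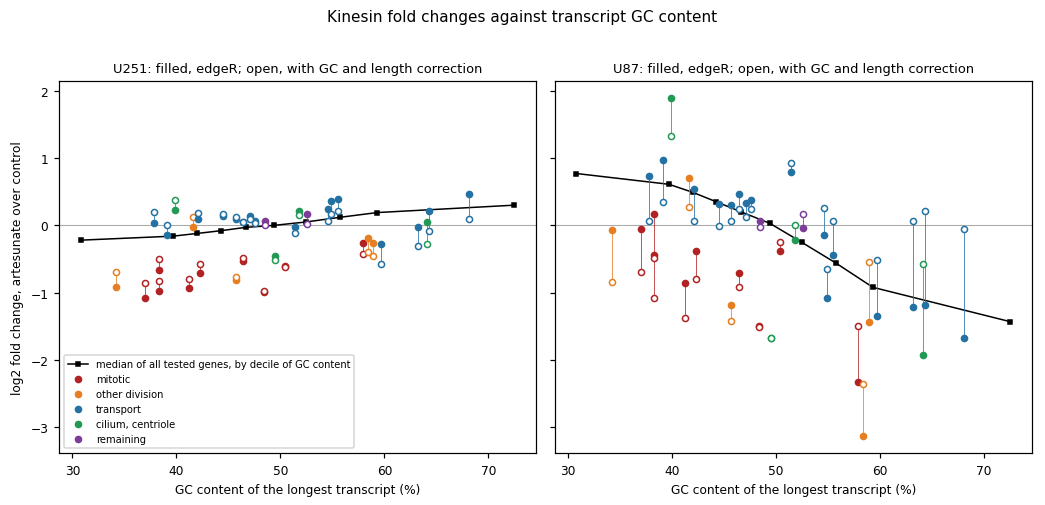
Log2 fold change of artesunate over control (vertical axis) against the GC content of the longest transcript in percent (horizontal axis), in U251 and U87. Points are kinesins coloured by role (filled, uncorrected; open, corrected for GC and length), and squares are medians of all tested genes by decile of GC content, which run from 0.77 to -1.43 in U87 and from -0.22 to 0.30 in U251.

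The mitotic kinesins that set up the bipolar spindle are KIF11, which slides antiparallel microtubules apart, and KIF15, which holds the spindle open beside it. KIF11 had 124, 123 and 145 CPM in U251 with artesunate, against 207, 215 and 218 CPM in U251 controls. In U87 it had 109, 89.9 and 93.9 CPM with artesunate, against 160, 129 and 131 CPM in controls. Every artesunate library lay below every control in both lines. The log2 fold change was -0.67 ± 0.11 in U251 (edgeR adjusted p = 0.0038) and -0.44 ± 0.11 in U87 (adjusted p = 0.0048). The corrected U87 value was -1.08. KIF15 reached 14.6, 18.6 and 21.0 CPM in the U251 artesunate libraries and 33.9, 39.2 and 32.5 CPM in the U251 controls. The U87 artesunate libraries held 28.8, 24.0 and 27.9 CPM, and the U87 controls 52.3, 51.8 and 50.5 CPM. The groups were apart in both lines, and the log2 fold change was -0.93 ± 0.14 in U251 (adjusted p = 0.0021) and -0.86 ± 0.14 in U87 (adjusted p = 2.0e-04; corrected -1.37). KIF15 overlaps TMEM42 on the same strand, and counting could split reads between the 2 genes.

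**Figure D4:**
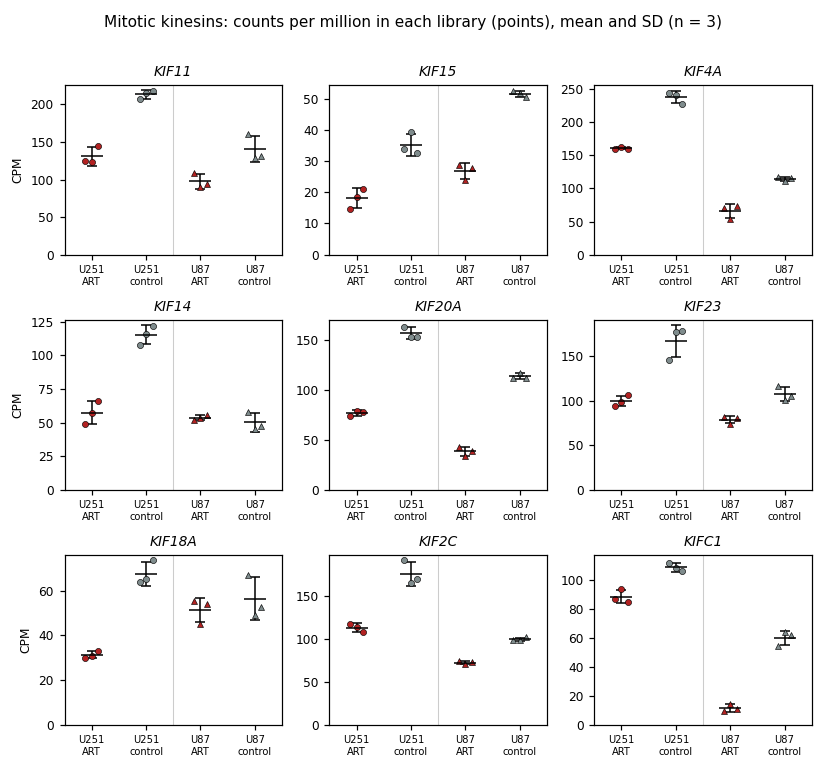
CPM (vertical axis, from 0) of the 9 mitotic kinesins in each library, artesunate left of control within each line; points are libraries, bars the mean and SD (n = 3). In U251 the artesunate libraries lie below the controls in all 9, and in U87 in all but KIF14 and KIF18A, for which the groups overlap. The share of all tested genes with groups apart is not given here, so this describes the 9 panels only.

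Chromosomes are moved and held by KIF4A, a chromosome-bound motor that also works at the midzone, KIF18A, which damps the swings of aligned chromosomes, and KIF2C, which takes microtubules apart at the centromere. For KIF4A, the U251 values were 160, 162 and 160 CPM with artesunate and 244, 241 and 227 CPM in controls. For U87 the values were 70.8, 54.5 and 73.6 CPM with artesunate and 117, 111 and 116 CPM in controls. It fell by 0.53 ± 0.11 in U251 (adjusted p = 0.013) and by 0.71 ± 0.11 in U87 (adjusted p = 1.7e-04; corrected -0.91) on the log2 scale, with no overlap in either line. KIF18A stood at 30.0, 30.9 and 33.2 CPM in U251 with artesunate and at 63.8, 65.5 and 73.8 CPM in U251 controls. U87 gave 55.4, 45.3 and 53.9 CPM with artesunate and 67.3, 49.3 and 52.7 CPM in controls. The U251 groups were separate, at -1.08 ± 0.13 on the log2 scale (adjusted p = 6.1e-04), and the U87 groups overlapped, with -0.05 ± 0.13 (adjusted p = 0.75). The corrected U87 value was -0.70 (adjusted p = 2.8e-05), and uncorrected it turned to 0.04 without the second artesunate library and 0.08 without the first control of U87. With artesunate, U251 gave 118, 114 and 108 CPM of KIF2C, against 192, 166 and 170 CPM in its controls. With artesunate, U87 had 74.3, 70.6 and 73.2 CPM, against 98.5, 98.6 and 102 CPM in its controls. It fell in both lines, by 0.60 ± 0.08 in U251 (adjusted p = 0.0012) and 0.38 ± 0.08 in U87 (adjusted p = 0.0017; corrected -0.25) on the log2 scale. KIF4B is an intronless copy nearly identical to KIF4A, so the split of reads between them is uncertain. It fell in U87, at -1.19 ± 0.38 (adjusted p = 0.019; corrected -1.42), with at most 1.77 CPM in any library, a call that ended without the first or the second artesunate library or the third control of U87 (adjusted p = 0.058, 0.059 and 0.075).

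The midzone and cytokinesis members are KIF23, part of the centralspindlin complex, KIF20A, which brings the chromosomal passenger complex to the midzone, and KIF14, which works with citron kinase at the cleavage furrow. KIF23 had 94.2, 99.0 and 106 CPM in U251 with artesunate, against 146, 177 and 178 CPM in U251 controls. Its U87 levels were 82.3, 74.0 and 80.4 CPM with artesunate and 117, 101 and 105 CPM in controls. It fell in both lines, with log2 fold changes of -0.71 ± 0.10 (U251, adjusted p = 0.0016) and -0.38 ± 0.10 (U87, adjusted p = 0.007; corrected -0.79). KIF20A reached 73.5, 78.7 and 77.3 CPM in the U251 artesunate libraries and 163, 153 and 153 CPM in the U251 controls. Among U87 libraries it reached 43.0, 33.8 and 38.5 CPM with artesunate and 112, 117 and 112 CPM in controls. KIF20A fell in both lines, with -0.99 ± 0.10 in U251 (adjusted p = 1.3e-04) and -1.49 ± 0.10 in U87 (adjusted p = 4.2e-07), and the correction left it at -0.98 and -1.51. For KIF14, the U251 values were 49.3, 57.0 and 66.2 CPM with artesunate and 108, 116 and 122 CPM in controls. In U87 it had 51.6, 53.6 and 55.8 CPM with artesunate, against 58.2, 45.3 and 47.3 CPM in controls. In U251 it fell by 0.97 ± 0.12 on the log2 scale (adjusted p = 6.1e-04) with no overlap. In U87 the groups overlapped at 0.17 ± 0.12 (adjusted p = 0.24), and the corrected value had the other sign, -0.49 (adjusted p = 5.1e-04).

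KIFC1 is a minus-end-directed motor that focuses spindle poles and clusters extra centrosomes. KIFC1 stood at 87.1, 93.7 and 84.8 CPM in U251 with artesunate and at 112, 108 and 106 CPM in U251 controls. The U87 artesunate libraries held 9.19, 14.2 and 11.0 CPM, and the U87 controls 54.2, 63.9 and 61.8 CPM. The uncorrected U87 fall of -2.32 ± 0.13 (adjusted p = 1.2e-07) was the largest of the mitotic members. With the correction it was -1.50, beside -1.51 for KIF20A. In U251 the KIFC1 groups were also apart, but the fold change of -0.26 ± 0.12 did not pass (adjusted p = 0.21). It passed there with the correction (-0.43, adjusted p = 0.0015) and in a fit on the U251 libraries alone (adjusted p = 0.031).

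Of the other division kinesins, KIF18B shortens astral microtubules, KIF20B acts late in cytokinesis, KIF22 pushes chromosome arms away from the poles and KIF2A takes microtubules apart at the poles. With artesunate, U251 gave 60.6, 68.2 and 59.4 CPM of KIF18B, against 78.5, 74.3 and 66.8 CPM in its controls. For U87 the values were 5.85, 11.8 and 6.01 CPM with artesunate and 68.0, 75.0 and 73.6 CPM in controls. The U87 groups were far apart, and the U87 fall (-3.13 ± 0.21, adjusted p = 4.4e-07; corrected -2.35) was the largest of the family, where U251 gave -0.19 ± 0.19 (adjusted p = 0.61). KIF20B had 80.3, 83.0 and 97.1 CPM in U251 with artesunate, against 151, 173 and 178 CPM in U251 controls. U87 gave 85.1, 76.4 and 88.0 CPM with artesunate and 111, 85.4 and 78.8 CPM in controls. It fell in U251, with -0.91 ± 0.13 (adjusted p = 0.002), and its U87 groups overlapped at -0.07 ± 0.13 (adjusted p = 0.69). The corrected U87 value was -0.84 (adjusted p = 4.0e-06), and without the first U87 control the uncorrected one was 0.09.

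KIF22 reached 60.3, 57.7 and 56.1 CPM in the U251 artesunate libraries and 70.0, 68.0 and 76.2 CPM in the U251 controls. With artesunate, U87 had 27.1, 40.4 and 28.8 CPM, against 88.7, 94.6 and 90.5 CPM in its controls. KIF22 fell in U87, by 1.44 ± 0.12 (adjusted p = 2.0e-06; corrected -0.54), and its U251 value of -0.26 ± 0.12 did not pass (adjusted p = 0.21). With the correction it passed in U251 at -0.45 (adjusted p = 7.1e-04), as it did without the second U87 artesunate library (adjusted p = 0.026). For KIF2A, the U251 values were 54.6, 49.1 and 60.5 CPM with artesunate and 56.5, 56.0 and 58.7 CPM in controls. Its U87 levels were 81.1, 98.4 and 87.3 CPM with artesunate and 64.9, 54.8 and 51.4 CPM in controls. KIF2A was the 1 division member that rose, in U87, by 0.71 ± 0.10 (adjusted p = 1.2e-04; corrected 0.28, adjusted p = 0.036). It overlaps IPO11 on the same strand and DIMT1 on the other, and whether the counting used strand is not stated, so its reads may include theirs.

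The conventional kinesins are KIF5A, KIF5B and KIF5C, heavy chains that carry mitochondria, vesicles and mRNA; KIF5B is found in most tissues, and KIF5A and KIF5C mainly in neurons. KIF5B stood at 436, 443 and 502 CPM in U251 with artesunate and at 504, 533 and 526 CPM in U251 controls. Among U87 libraries it reached 805, 719 and 786 CPM with artesunate and 471, 384 and 392 CPM in controls. The U87 groups did not overlap, and KIF5B rose there by 0.97 ± 0.09 (adjusted p = 5.0e-06; corrected 0.35, adjusted p = 1.4e-04). The U251 groups did not overlap either, with artesunate below control, but -0.14 ± 0.09 did not pass (adjusted p = 0.38, corrected 0.00). KIF5B made up 35.5% ± 1.27 of the kinesin FPKM in U87 with artesunate and 17.1% ± 1.45 in U87 controls, and 19.7% ± 1.27 in U251 with artesunate and 17.8% ± 0.608 in U251 controls (SD, n = 3 each). With artesunate, U251 gave 6.04, 5.61 and 6.05 CPM of KIF5A, against 6.40, 5.95 and 6.14 CPM in its controls. In U87 it had 45.1, 46.8 and 47.3 CPM with artesunate, against 24.4, 29.4 and 30.7 CPM in controls. It rose in U87 by 0.79 ± 0.10 (adjusted p = 4.7e-05) and more so with the correction (0.93). KIF5C had 41.7, 46.3 and 42.9 CPM in U251 with artesunate, against 44.9, 40.0 and 37.0 CPM in U251 controls. The U87 artesunate libraries held 103, 95.1 and 99.3 CPM, and the U87 controls 87.6, 81.6 and 82.5 CPM. Its U87 rise of 0.32 ± 0.09 (adjusted p = 0.011) ended with the correction (-0.01, adjusted p = 0.91) and without the third U87 control (adjusted p = 0.055).

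Kinesin-2 motors, built from KIF3A with KIF3B or KIF3C, drive transport inside cilia and of vesicles. KIF3A reached 32.5, 33.9 and 42.3 CPM in the U251 artesunate libraries and 36.3, 35.5 and 36.2 CPM in the U251 controls. For U87 the values were 49.2, 52.7 and 47.1 CPM with artesunate and 30.0, 29.8 and 34.3 CPM in controls. It rose in U87 by 0.74 ± 0.10 (adjusted p = 8.0e-05), and with the correction no longer (0.06, adjusted p = 0.7). For KIF3B, the U251 values were 147, 135 and 128 CPM with artesunate and 137, 133 and 134 CPM in controls. U87 gave 227, 221 and 230 CPM with artesunate and 188, 182 and 182 CPM in controls. It rose in U87 by 0.37 ± 0.07 (adjusted p = 0.001; corrected 0.24, adjusted p = 0.0071). KIF3C stood at 59.9, 64.9 and 41.9 CPM in U251 with artesunate and at 53.5, 49.8 and 27.0 CPM in U251 controls. With artesunate, U87 had 91.6, 99.2 and 89.8 CPM, against 128, 131 and 142 CPM in its controls. The U87 groups did not overlap, but the value of -0.44 ± 0.22 did not pass (adjusted p = 0.11). It passed without the third U251 control (adjusted p = 0.019), the lowest of that group, and also in the U87 libraries alone (0.0035), with the replicate block (0.007) and on log2(FPKM + 1) (0.049). KIF17, a homodimeric kinesin-2 of dendrites and cilia, fell in U87 at -1.21 ± 0.31 (adjusted p = 0.0057) with 0.418 to 0.744 CPM in artesunate libraries against 1.16 to 2.15 CPM in controls, and the correction turned the sign (0.07, adjusted p = 0.92).

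The kinesin-3 members carry vesicles, mitochondria and endosomes: KIF1B and KIF1C, KIF13A and KIF13B, and the early endosome motor KIF16B. With artesunate, U251 gave 393, 424 and 356 CPM of KIF1C, against 328, 317 and 292 CPM in its controls. Its U87 levels were 132, 167 and 130 CPM with artesunate and 293, 332 and 326 CPM in controls. The groups were apart in both lines and in opposite directions. KIF1C fell in U87 by 1.08 ± 0.11 (adjusted p = 5.5e-06; corrected -0.65), and its U251 value of 0.36 ± 0.10 missed the threshold (adjusted p = 0.056). The U251 value passed with DESeq2 (adjusted p = 0.024), in the U251 libraries alone (0.028) and without the third U251 or the second U87 artesunate library (0.044 and 0.017), while its corrected value was 0.17 (adjusted p = 0.13).

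KIF1B had 213, 170 and 226 CPM in U251 with artesunate, against 191, 187 and 187 CPM in U251 controls. Among U87 libraries it reached 195, 156 and 189 CPM with artesunate and 154, 154 and 145 CPM in controls. Its U87 rise of 0.33 ± 0.12 (adjusted p = 0.028) ended with the correction (0.13, adjusted p = 0.33) and without any 1 of 6 libraries, the first U251 control, the first or the third U87 artesunate library or any U87 control (adjusted p = 0.051 to 0.12). KIF13A reached 127, 122 and 136 CPM in the U251 artesunate libraries and 130, 129 and 120 CPM in the U251 controls. In U87 it had 76.9, 67.8 and 79.2 CPM with artesunate, against 54.3, 54.1 and 62.1 CPM in controls. It rose in U87 by 0.47 ± 0.09 (adjusted p = 9.8e-04; corrected 0.25, adjusted p = 0.018). For KIF13B, the U251 values were 99.1, 102 and 97.5 CPM with artesunate and 92.1, 85.0 and 79.3 CPM in controls. The U87 artesunate libraries held 95.2, 92.0 and 89.3 CPM, and the U87 controls 101, 113 and 106 CPM. The U251 value was 0.25 ± 0.08 (adjusted p = 0.084; 0.04 with DESeq2) and the U87 value -0.14 ± 0.08 (adjusted p = 0.17), which the correction turned to 0.26 (adjusted p = 0.031). KIF16B stood at 8.78, 7.88 and 8.22 CPM in U251 with artesunate and at 8.73, 7.79 and 7.28 CPM in U251 controls. For U87 the values were 21.5, 15.8 and 17.4 CPM with artesunate and 17.3, 14.0 and 15.5 CPM in controls. It passed in neither line (0.10 ± 0.15 in U251 and 0.30 ± 0.15 in U87, adjusted p = 0.77 and 0.1), but passed in U87 without the second U87 artesunate library (adjusted p = 0.029).

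**Figure D5:**
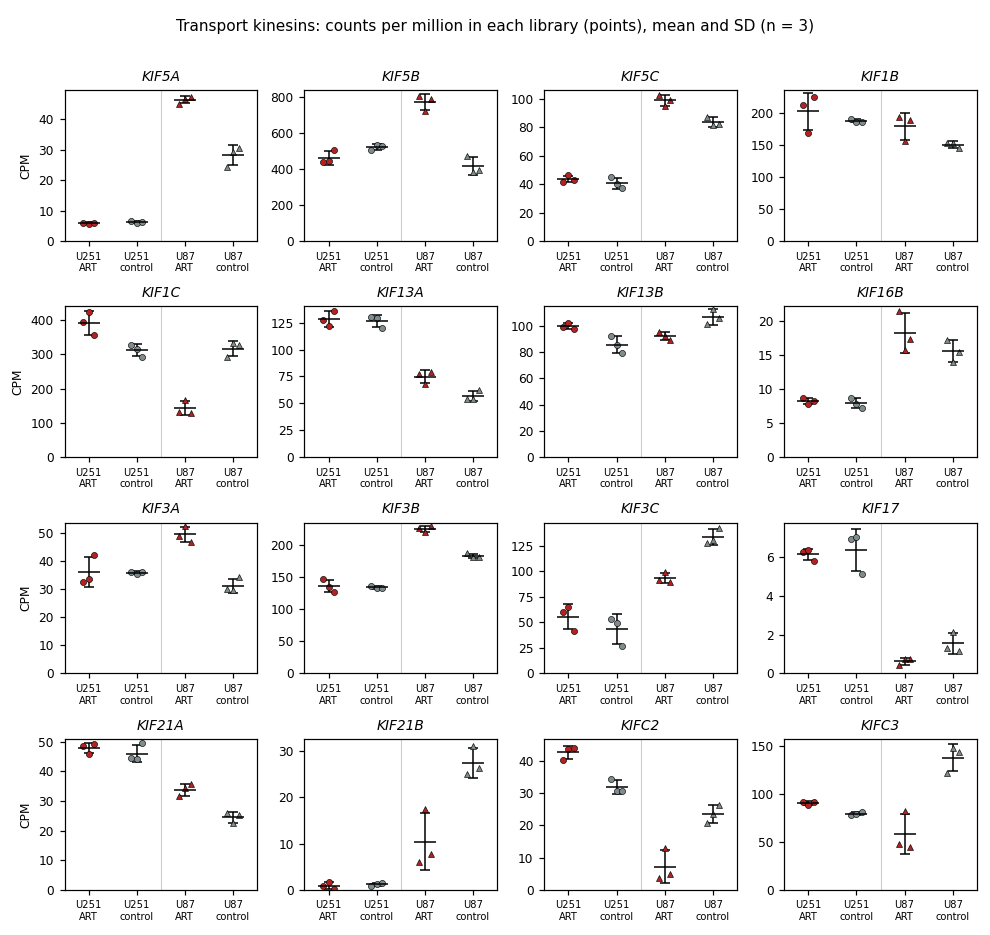
CPM (vertical axis, from 0) of the 16 tested transport kinesins in each library, artesunate left of control within each line; points are libraries, bars the mean and SD (n = 3). KIF5B stands at 719 to 805 CPM in U87 with artesunate against 384 to 471 CPM in U87 controls, and KIF1C at 130 to 167 CPM against 293 to 332 CPM.

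KIF21A and KIF21B are kinesin-4 motors that restrain microtubule growth, and KIFC2 and KIFC3 walk to the minus end, KIFC3 at cell junctions among other places. With artesunate, U251 gave 48.6, 45.9 and 49.1 CPM of KIF21A, against 44.4, 44.2 and 49.4 CPM in its controls. U87 gave 31.6, 34.2 and 35.6 CPM with artesunate and 26.0, 22.4 and 25.1 CPM in controls. It rose in U87 by 0.54 ± 0.09 (adjusted p = 3.0e-04), and not with the correction (0.06, adjusted p = 0.56). KIF21B had 0.914, 1.60 and 0.247 CPM in U251 with artesunate, against 0.867, 1.17 and 1.39 CPM in U251 controls. With artesunate, U87 had 6.06, 17.5 and 7.75 CPM, against 25.0, 31.1 and 26.3 CPM in its controls. The second U87 artesunate library was the highest of its group. The U87 fall (-1.34 ± 0.40, adjusted p = 0.013) ended with the correction (-0.52, adjusted p = 0.21) and without the third artesunate library (adjusted p = 0.053). KIFC2 reached 40.4, 43.8 and 43.9 CPM in the U251 artesunate libraries and 34.3, 30.5 and 30.6 CPM in the U251 controls. Its U87 levels were 3.55, 13.0 and 4.84 CPM with artesunate and 20.8, 23.4 and 26.4 CPM in controls. Its U87 fall (-1.67 ± 0.34, adjusted p = 0.0011) ended with the correction, at -0.05 (adjusted p = 0.85). In U251 the groups did not overlap, but 0.46 ± 0.31 did not pass (adjusted p = 0.41); it passed without the second U87 artesunate library (0.026).

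For KIFC3, the U251 values were 91.9, 88.2 and 91.4 CPM with artesunate and 78.3, 79.2 and 81.0 CPM in controls. Among U87 libraries it reached 47.8, 82.7 and 44.9 CPM with artesunate and 122, 148 and 144 CPM in controls. The U87 fall (-1.18 ± 0.18, adjusted p = 1.4e-04) ended with the correction and changed sign (0.21, adjusted p = 0.061). Again the second U87 artesunate library stood highest in its group, as it did in 8 of the 9 tested members with a GC content of at least 55% and in 5 of the 27 below. The second U87 control was the highest of its group in 7 of the same 9 members and in 3 of the 27 below. Without the second U87 artesunate library 16 members fell and 11 rose in U87, where 5333 of all 17606 tested genes fell and 5135 rose.

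At the cilium and centriole, KIF7 regulates Hedgehog signalling at the cilium tip and KIF24 holds back cilium growth at the mother centriole. KIF7 stood at 20.2, 19.1 and 17.5 CPM in U251 with artesunate and at 18.5, 21.7 and 16.3 CPM in U251 controls. In U87 it had 17.8, 22.8 and 13.9 CPM with artesunate, against 66.4, 77.9 and 72.5 CPM in controls. It fell in U87, by 1.92 ± 0.16 (adjusted p = 2.1e-06; corrected -0.57, adjusted p = 0.0064), and the U251 groups overlapped at 0.05 ± 0.16 (adjusted p = 0.92). KIF7 overlaps TICRR, a replication gene on the other strand that averaged 36.0 CPM, over 22268 bases, so reads of the 2 may be mixed. With artesunate, U251 gave 20.3, 20.6 and 19.8 CPM of KIF24, against 29.1, 31.1 and 24.9 CPM in its controls. The U87 artesunate libraries held 6.83, 9.02 and 7.25 CPM, and the U87 controls 23.6, 26.5 and 26.8 CPM. KIF24 fell in U87 by 1.67 ± 0.13 (adjusted p = 9.7e-07) and the correction left it at -1.68. Its U251 fall (-0.46 ± 0.12) was near the threshold (adjusted p = 0.042) and ended without any 1 of 8 libraries, any U251 artesunate library, the first or the second U251 control, the third U87 artesunate library or the second or the third U87 control (adjusted p = 0.057 to 0.15).

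KIF27, a relative of KIF7, rose in U87 to 6.53 to 9.19 CPM with artesunate, against 1.72 to 2.83 CPM in controls, a change of 1.89 ± 0.27 on the log2 scale (adjusted p = 9.0e-05; corrected 1.32). KIF9, a motor of motile cilia, stood at 2.39 to 4.85 CPM in all libraries and passed in neither line, and its antisense gene KIF9-AS1 overlaps it. Of the remaining members, KIF6 stood at 0.823 to 2.48 CPM with no call in either line. KIF26B had 17.6, 19.3 and 17.8 CPM in U251 with artesunate, against 17.5, 16.3 and 16.2 CPM in U251 controls. For U87 the values were 8.01, 5.50 and 1.86 CPM with artesunate and 3.75, 3.80 and 9.07 CPM in controls. KIF26B, which binds microtubules without clear motor activity, passed in neither line, and its U87 libraries spread widely within both groups.

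The lines differed in the artesunate effect on many kinesins, as they did on many of all tested genes. The test of that difference (U251 minus U87) passed for 23 of the 36 members, 12 with a positive and 11 with a negative difference, where 49.4% of all tested genes passed, 24.1% and 25.3%. Corrected for GC and length, 8 passed with a positive and 4 with a negative difference (30.1% of all genes, 14.2% and 15.9%). Positive differences that passed in both fits were those of KIF18B, KIFC1, KIF1C, KIF24 and KIF20A, and negative ones those of KIF5B, KIF5A and KIF14. For KIF14 the corrected value was near the threshold (-0.34, edgeR adjusted p = 0.046, against -1.14 uncorrected). It did not pass with the replicate block added to the correction (adjusted p = 0.07). KIF18B differed by 2.95 ± 0.28 (adjusted p = 1.2e-05; corrected 1.96) and KIF5B by -1.11 ± 0.13 (adjusted p = 4.6e-05; corrected -0.35). KIF11, KIF15 and KIF4A differed only in the corrected fit, with positive values of 0.59, 0.57 and 0.41 (adjusted p = 7.9e-04, 0.018 and 0.026), and KIF2C with a negative value of -0.37 (adjusted p = 0.014).

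Between the untreated lines, U251 controls had higher mitotic kinesins than U87 controls: 7 of 9 were higher and 1 lower, with a median log2 ratio of 0.66 (U251 over U87). Over all members 14 were higher, 12 lower and 10 did not pass, where 64.8% of all tested genes passed, 32.5% higher and 32.3% lower. KIF14 was higher in U251 controls by 1.23 ± 0.12 (adjusted p = 2.5e-06), KIF4A by 1.07 ± 0.11 (adjusted p = 4.2e-06) and KIFC1 by 0.88 ± 0.12 (adjusted p = 4.8e-05). KIF15 was the 1 mitotic member lower in U251 controls, at -0.53 ± 0.13 (adjusted p = 0.0047), and KIF18A did not pass at 0.29 ± 0.13 (adjusted p = 0.069). With the correction 14 members were higher and 15 lower (66.6% of all genes passed, 33.5% higher and 33.1% lower), KIF11 no longer passed (0.06, adjusted p = 0.41) and KIF18A passed as lower (-0.26, adjusted p = 0.013).

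Of the 16 tested transport kinesins 5 were higher and 8 lower in U251 controls (all tested genes 32.5% and 32.3%). With the correction 5 were higher and 9 lower (all tested genes 33.5% and 33.1%). KIF21B had the widest gap, -4.55 ± 0.49 (adjusted p = 6.4e-06), followed among lower members by KIF5A at -2.17 ± 0.11, KIF3C at -1.60 ± 0.23 and KIF5C at -1.02 ± 0.09 (adjusted p = 1.1e-08, 6.5e-05 and 1.5e-06). Both conventional kinesins found mainly in neurons were among them. The neuron marker list went the other way, with 3 of 5 tested markers higher and 1 lower in U251 controls (median 1.14). Higher in U251 controls were KIF17 at 2.06 ± 0.26 and KIF13A at 1.18 ± 0.09 (adjusted p = 2.1e-05 and 4.1e-07), and KIF5B by 0.35 ± 0.09 (adjusted p = 0.0056), which the correction turned to -0.20 (adjusted p = 0.0036). KIF7 was lower in U251 controls, at -1.92 ± 0.16 (adjusted p = 8.3e-07), and KIF26B was higher by 1.62 ± 0.42 (adjusted p = 0.0052). KIF22 was lower, at -0.33 ± 0.12 (adjusted p = 0.029), a call that ended without the first or the second U251 control or the second U87 control (adjusted p = 0.066, 0.092 and 0.087). When corrected, KIF22 passed with the other sign (0.18, adjusted p = 0.016). KIF1B was higher by 0.35 ± 0.12 (adjusted p = 0.02), but not without the first U251 control or the third U87 control (0.061 and 0.081). With the correction it did not pass either (0.20, adjusted p = 0.1).

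The kinesins outside the symbol pattern were read in the same libraries. CENPE reached 54.5, 57.2 and 77.7 CPM in the U251 artesunate libraries and 126, 140 and 140 CPM in the U251 controls. U87 gave 83.9, 86.1 and 80.3 CPM with artesunate and 126, 97.1 and 90.4 CPM in controls. CENPE fell in U251 by 1.06 ± 0.14 on the log2 scale (adjusted p = 0.0012), and its U87 value of -0.25 ± 0.14 did not pass (adjusted p = 0.15), where the corrected value was -1.01 (adjusted p = 5.0e-06). For STARD9, the U251 values were 44.5, 38.7 and 41.7 CPM with artesunate and 36.4, 38.1 and 33.7 CPM in controls. With artesunate, U87 had 20.4, 25.6 and 13.3 CPM, against 23.5, 25.6 and 24.4 CPM in its controls. STARD9 passed in neither line (adjusted p = 0.44 in U251 and 0.26 in U87).

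Transcripts of proteins that work with kinesins at the spindle and midzone gave falls and no rises in either line: of 18 partners tested, 13 fell and none rose in U251 (median -0.61; 4.26% of all tested genes fell and 4.09% rose there), and 13 fell and none rose in U87 (median -0.59; 29.2% of all tested genes fell and 29.2% rose there). The smallest p belonged to HMMR, a spindle pole protein, in U251 (-1.16 ± 0.09, adjusted p = 2.4e-05), and to CDCA8, a chromosomal passenger subunit, in U87 (-1.53 ± 0.11, adjusted p = 6.8e-07). Of 20 regulators of cell cycle transcription, 3 fell and none rose in U251 (median -0.25), led by E2F8 at -0.65 ± 0.13 (adjusted p = 0.011). In U87 9 fell and 7 rose (median -0.30; all genes 29.2% each way), with MYBL2 at -2.52 ± 0.13 and RBL2 at 0.95 ± 0.08 (adjusted p = 8.0e-08 and 1.6e-06), and in the corrected fit 8 fell and 2 rose (all genes 21.7% and 23.9%).

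Of 16 light chains and cargo adaptors, 3 rose and none fell in U251 (median 0.18; all genes 4.09% and 4.26%), led by the light chain KLC1 at 0.50 ± 0.08 (adjusted p = 0.003), and none passed in the corrected fit. In U87 4 rose and 7 fell (median -0.08; all genes 29.2% each way), led by RHOT1, which links motors to mitochondria, at 1.10 ± 0.10 and MAP7D1 at -1.49 ± 0.14 (adjusted p = 3.0e-06 and 3.3e-06), while in the corrected fit 8 rose and 3 fell (all genes 23.9% and 21.7%). Of 24 tested dynein and dynactin genes, which form and regulate the main minus-end-directed motor, 1 rose in U251, the adaptor BICD1 at 0.82 ± 0.15 (adjusted p = 0.0062; list median -0.03; 4.09% of all genes rose). In U87 7 rose and 5 fell (median 0.02; all genes 29.2% each way), and in the corrected fit 8 rose and 7 fell (all genes 23.9% and 21.7%), with uncorrected values of 0.96 ± 0.09 for DCTN4 and -1.08 ± 0.12 for DCTN1 (adjusted p = 3.9e-06 and 1.1e-05). Of 11 tubulins, the track itself, 2 fell in U251 (median -0.13; all genes 4.26%), led by TUBA1C at -0.54 ± 0.08 (adjusted p = 0.0023), and 9 fell in U87 (median -1.15; all genes 29.2%) and 6 in the corrected fit (all genes 21.7%), led by TUBB at -1.57 ± 0.07 (adjusted p = 2.4e-08).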

How the data were processed

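RNA of U251 and U87 cells was sequenced in 12 libraries, 3 in each of 4 groups taken from the sample titles. Per the submitters' processing notes, reads were handled with fastp, HISAT2 2.1.0, StringTie 1.3.3b and edgeR 3.30.3. Per the series text they were aligned to GRCh38 with Ensembl 91 gene models. The deposited table holds whole-number counts, whose counting step and strand setting are not given in the sources used here, and FPKM. The series text names edgeR with TMM, but the FPKM behave as values scaled to library totals. KIF5B averaged 460 CPM and 75.4 FPKM in U251 with artesunate and 521 CPM and 85.3 FPKM in U251 controls. In U87 it averaged 770 CPM and 126 FPKM with artesunate and 416 CPM and 68.1 FPKM in controls. The ratio stays the same, so no TMM scaling shows in the FPKM. Fold changes, p-values and calls that the authors deposited were not used.

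The counts were tested with edgeR 4.0.16 in R 4.3.3 (filterByExpr with minimum count 10 and minimum total 15, TMM factors, quasi-likelihood fit of 4 group means to all 12 libraries). Calls needed an adjusted p (Benjamini-Hochberg over the 17150 genes tested) under 0.05. Each standard error is the size of the log2 fold change divided by the root of its F statistic. CPM are the deposited counts scaled to the library total. The corrected fit adds offsets for GC content and length, taken from the longest GENCODE 29 transcript (known for 99.6% of tested genes), and 41 of 42 members had the same position there. Alternatives were DESeq2 1.42.0, RLE size factors, total counts, no filter, limma 3.58.1 on log2(FPKM + 1) and log2(FPKM + 0.1), a replicate block, only the libraries compared, and leaving out each library. The tests were tried on simulated counts first.

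Totals of 13631985 to 17314284 counts put the floor of 3 counts at 0.173 to 0.220 CPM, which covers counting error only. The members and gene lists were chosen with earlier results of these data known. By rule, every member is accounted for, values per library are given for mitotic members, for called members with at least 10 CPM in 1 group and for CENPE and STARD9, and other lists are given by counts, median and, per direction, the member with the smallest p. Promoters are from RefSeq (GRCh38.p14).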

Additional observations from a re-analysis of the deposited data

Results flagged for a closer look

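For 23 kinesins the artesunate effect differed between the lines by the interaction test of the edgeR fit (adjusted p under 0.05 over all genes). Values are log2 differences, the effect in U251 minus the effect in U87, and 49.4% of all tested genes passed the same test. Among division kinesins the difference was 2.95 for KIF18B, 2.06 for KIFC1, 1.18 for KIF22 and 0.49 for KIF20A, and -1.14 for KIF14, -1.02 for KIF18A, -0.84 for KIF20B and -0.74 for KIF2A. Among transport kinesins it was 2.13 for KIFC2, 1.44 for KIF1C, 1.40 for KIFC3, 1.19 for KIF17, 0.84 for KIF3C and 0.39 for KIF13B. Negative differences there were -1.11 for KIF5B, -0.82 for KIF5A, -0.69 for KIF3A, -0.44 for KIF21A, -0.42 for KIF13A and -0.31 for KIF3B. At the cilium and centriole it was 1.97 for KIF7, 1.21 for KIF24 and -1.66 for KIF27.

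With the correction for GC and length 8 of the 23 still passed: KIF18B, KIFC1, KIF1C, KIF24, KIF20A, KIF14, KIF5A and KIF5B. The corrected KIF14 value was near the threshold (-0.34, edgeR adjusted p = 0.046) and did not pass with the replicate block added (0.07). The call for KIF3C ended without any 1 of 8 libraries (adjusted p = 0.057 to 0.11), and that for KIF3B without any 1 of 5 (0.052 to 0.085). The call for KIF17 ended without the third U251 control, the first U87 artesunate library or the second U87 control (0.054, 0.065 and 0.07). The call for KIF13A ended without the first U251 control or the third U87 artesunate library (0.061 and 0.054). Line and dose cannot be told apart in any of these.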

How the results depend on the processing

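The mitotic counts (8 lower in U251, 7 lower in U87) stayed within 1.5 times under all alternatives and were 8 and 7 without any 1 library. With 0 members called higher in U251, all of them transport members where called, DESeq2 called 2, the replicate block 1, the libraries compared alone 3 and leaving out 1 library 0 to 2. Of all 17150 tested genes, 701 were higher there in the main fit, 1083 with DESeq2 and 613 with the block. In the libraries alone 1481 of 15286 were higher, and leaving out 1 library gave 340 to 1328 higher genes. GC and length correction, without and with the replicate block, left 5 and 4 transport members higher and 1 lower in U87 (8 and 5 uncorrected), and 4 negative differences between lines (11 uncorrected). With the block 5 members in all were higher in U87 (10 uncorrected). In these 2 fits 4100 and 3804 of all 17150 tested genes rose in U87 (5000 uncorrected), and 3729 and 3440 fell (5005 uncorrected). Negative differences passed for 2722 and 2290 of all tested genes (4346 uncorrected). The cause was not tested.

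Signs turned under the same 2 corrected fits. In U87 they gave -0.01 for KIF5C, 0.21 for KIFC3, 0.07 for KIF17 and -0.49 for KIF14 in both. The difference between lines became 0.15 and 0.14 for KIF3A, 0.15 in both for KIF20B, -0.29 in both for KIFC3, 0.11 and 0.12 for KIF21A, -0.38 and -0.37 for KIF17 and -0.19 in both for KIF13B. Between controls KIF22 became 0.18 and KIF5B -0.20 in both. Leaving out 1 library moved the U87 value of KIF18A over -0.14 to 0.08 and that of KIF20B over -0.20 to 0.09. The KIF1B rise in U87 also ended with total counts (adjusted p = 0.067), and the KIF24 fall in U251 without the filter (0.13).

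Of 93 values for single members, 93 kept their direction and side of the threshold with RLE size factors, 92 with DESeq2, 91 with the replicate block and 59 with the correction. Replicate numbers pair no samples by the labels. After removal of group means, treated and control libraries of the same number correlated at -0.009 to 0.053. Those of different numbers correlated at -0.085 to 0.044, and whether the numbers mark pairs was not tested. At this depth KIF1A and the 5 members without a count could not be tested. For those 5, absence and a level too low to be counted cannot be told apart.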

Other observations

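Cell type markers were read in the same edgeR fit, in which 4.26% of all tested genes fell and 4.09% rose in U251, and 29.2% fell and 29.2% rose in U87. Of the 9 tested astrocyte and glioma markers, 1 fell and none rose in U251, OLIG2, which had no count in the artesunate libraries (adjusted p = 0.049), and 3 fell and 2 rose in U87, led by NES, an intermediate filament of neural progenitors (-2.57 ± 0.13, adjusted p = 6.6e-08), and SLC1A2, a glutamate transporter (2.64 ± 0.42, adjusted p = 2.1e-04). The medians were -0.10 in U251 and 0.00 in U87. Of 5 tested neuron markers none passed in U251 (median 0.14), and in U87 2 fell and 1 rose (median 0.11), led by SNAP25 (-0.84 ± 0.17, adjusted p = 0.0014) and SYT1 (1.88 ± 0.19, adjusted p = 7.5e-06). The 2 tested oligodendrocyte markers gave no call in U251 (median 0.04) and a fall of CNP in U87 (-1.78 ± 0.22, adjusted p = 3.2e-05; median -0.44). The 2 tested microglia and leukocyte markers gave no call in U251 (median 0.37), and both fell in U87 (median -1.32), led by CSF1R (-1.48 ± 0.23, adjusted p = 2.0e-04). Of 4 tested endothelial markers 1 fell in U251 (median 0.10) and 2 in U87 (median -0.28), led by KDR in both lines (-0.65 ± 0.13, adjusted p = 0.011 in U251 and -0.71 ± 0.13, adjusted p = 7.2e-04 in U87). Of 3 tested epithelial markers none passed in U251 (median 0.17), and KRT18 fell in U87 (-1.71 ± 0.55, adjusted p = 0.018; median -0.65).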
